A study of Mus musculus with 6 samples.

Results

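The subunits of the mitochondrial respiratory chain and of ATP synthase were described in the dissected heads of mouse embryos, as genes whose symbol in the array's annotation names a nuclear-encoded subunit of complex I (Nduf), II (Sdh), III (Uqcr), IV (Cox) or V (Atp5). The rule found 81 genes of the 19938 with a probe set of their own. Of these, 33 belong to complex I, 4 to complex II, 8 to complex III, 19 to complex IV and 17 to complex V, with Ndufa4 and its relative Ndufa4l2 counted under complex IV, where Ndufa4 is now placed. Each gene was read from its brightest probe set, and 77 of the 81 passed the brightness filter and were tested.

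RNA came from 3 heads labelled Taspase1 knockout (KO, Tasp1-/-) and 3 labelled wild type (WT), all at E10.5, on the C57Bl6 background, from intercrosses of Tasp1+/- mice. The head tissue was the prosencephalon and mesencephalon, and each head was hybridised to 1 Affymetrix array. Tasp1 encodes Taspase1, a protease that cuts nuclear regulators such as the MLL histone methyltransferases and a subunit precursor of TFIIA. Values are deposited log2 signals, differences are KO-labelled minus WT-labelled on the log2 scale, and a signal of one probe set cannot be set against that of another. In bulk tissue of this kind, fewer cells of a type and less RNA per cell cannot be told apart.

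The respiratory chain passes electrons from NADH through complex I, or from succinate through complex II, to ubiquinone, then through complex III and cytochrome c to complex IV, where oxygen is reduced. Complexes I, III and IV pump protons across the inner mitochondrial membrane, and complex V uses the gradient to make ATP. Apart from complex II, each complex combines subunits encoded in the nucleus with a few encoded in mitochondrial DNA, and the promoters of the nuclear genes are known for sites of the factors NRF1, GABP (an ETS factor) and YY1. Neuroepithelium at midgestation relies strongly on glycolysis, and oxidative metabolism gains weight as neurons mature.

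Some facts of the 6 arrays bear on every result. The Tasp1 probe set read 8.63, 8.63 and 8.50 in KO 1 to KO 3 and 8.10, 8.45 and 8.49 in WT 1 to WT 3, so it was not lower in the heads labelled KO. No source used here says whether this probe set falls inside the deletion, so it does not check the labels, and genotypes are given as labelled. WT 1 stood apart along the first principal component over all genes tested, at 13.3, with the remaining heads between −6.20 and 1.06. WT 2 had a female pattern (Xist at 12.3, against at most 5.24 in every other head), the others a male one. The difference without WT 1 stands beside most of those that WT 1 moved by a large factor or turned in sign. The effect of leaving out WT 2 is stated for the whole set and for the X-linked members.

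Promoter sequence is shown first for the members lower at an unadjusted p under 0.05 in limma, none of which passed adjustment. It is also shown for some members that carry the sites known from this pathway. RefSeq's promoter table (GRCm38.p6) held 66 of the 81 genes, each with 250 bases before and 50 after the start of the gene. Uqcrb, which was higher at an unadjusted p under 0.05, was not among these genes. The NRF1 core GCATGCGC, searched on both strands as the other motifs were, lay in 10 of these 66 promoters (15.2%) and in 2.80% of all 27025 promoters of the table. It reads nearly the same on both strands, so 1 site can give overlapping matches on both strands. The ETS core CCGGAAG lay in 16 (24.2%) against 9.12% of all promoters, and the YY1 core AAGATGGC in 9 (13.6%) against 2.88%. In total 30 of the 66 held at least 1 of the motifs, and a match is a run of letters and no measured site.

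The 150 bases just before the start site are given below in the direction of the gene, in lower case, with every match to a motif in capitals. Ndufc2, Atp5e, Atp5h and Ndufs8 are the 4 genes with the clearest lower signal in KO-labelled heads, and Cox6a1, Atp5k and Sdhb are 3 of the 5 genes whose promoters hold both an NRF1 and an ETS core (the others are Atp5l and Uqcr11). They lie at chr7:97399853-97400002 (plus strand, Ndufc2), chr2:174464102-174464251 (minus, Atp5e), chr11:115419920-115420069 (minus, Atp5h), chr19:3912775-3912924 (minus, Ndufs8), chr5:115348959-115349108 (minus, Cox6a1), chr5:108434400-108434549 (minus, Atp5k) and chr4:140961121-140961270 (plus, Sdhb).
Ndufc2: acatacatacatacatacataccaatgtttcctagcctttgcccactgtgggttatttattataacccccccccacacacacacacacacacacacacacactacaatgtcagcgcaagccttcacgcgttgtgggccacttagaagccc
Atp5e: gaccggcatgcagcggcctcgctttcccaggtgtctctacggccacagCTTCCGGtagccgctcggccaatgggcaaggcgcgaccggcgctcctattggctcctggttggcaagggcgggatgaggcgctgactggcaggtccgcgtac
Atp5h: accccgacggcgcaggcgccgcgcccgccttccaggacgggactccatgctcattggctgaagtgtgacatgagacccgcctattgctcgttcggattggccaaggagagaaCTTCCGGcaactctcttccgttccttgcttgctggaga
Ndufs8: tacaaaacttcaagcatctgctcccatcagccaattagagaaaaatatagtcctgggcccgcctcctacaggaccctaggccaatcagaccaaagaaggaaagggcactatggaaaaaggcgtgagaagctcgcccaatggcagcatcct
Cox6a1: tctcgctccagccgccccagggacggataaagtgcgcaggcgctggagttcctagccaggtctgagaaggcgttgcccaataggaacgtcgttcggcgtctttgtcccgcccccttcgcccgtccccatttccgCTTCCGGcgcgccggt
Atp5k: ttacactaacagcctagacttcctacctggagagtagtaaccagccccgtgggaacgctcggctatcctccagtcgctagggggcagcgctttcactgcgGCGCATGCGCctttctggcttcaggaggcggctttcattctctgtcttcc
Sdhb: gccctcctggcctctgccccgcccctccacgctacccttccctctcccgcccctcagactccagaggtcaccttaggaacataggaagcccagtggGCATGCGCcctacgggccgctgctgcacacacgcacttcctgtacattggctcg

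In these stretches Atp5e and Atp5h each show an ETS core on the reverse strand, from −102 to −96 and from −38 to −32 relative to the start. The Ndufs8 match falls after the start, from 16 to 22, and Ndufc2 held none of the motifs. Cox6a1 shows an ETS core from −16 to −10, with its NRF1 core farther upstream, from −162. Atp5k and Sdhb show the NRF1 core, from −50 and from −54.

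As a set, the subunit genes stood slightly lower in the KO-labelled heads, and that offset came with WT 1. Of the 77 tested, 63 (81.8%) had a lower mean in KO-labelled heads, where 55.4% of all 11802 genes tested did, with a median difference of −0.054 against −0.0092 over all genes. That median corresponds to 96.3% of the WT-labelled signal. In limma with Benjamini-Hochberg adjustment over all genes, 0 members passed (smallest adjusted p = 0.28), and 0 of all genes did (background 0%), as in an ordinary linear model. At an unadjusted p under 0.05 stood 841 of all genes (7.13%) and 5 members, of which 4 were lower (background 4.65%) and 1 was higher (background 2.47%).

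Head by head, the members' median deviation from each gene's mean was −0.044 in KO 1, −0.015 in KO 2 and −0.026 in KO 3, against 0.116 in WT 1, −0.029 in WT 2 and −0.011 in WT 3. Over all genes tested those medians were 0.0055, 0.0090 and −0.028 in KO 1 to KO 3. They were 0.014, −0.0073 and 0.011 in WT 1 to WT 3. Among the members WT 1 alone stood far above the rest, while WT 2 lay within the range of the KO-labelled heads. WT 3 lay just above that range, as it also did over all genes tested. WT 1 was the highest of the 6 heads for 55 of the 77 members (71.4%), where it was the highest for 29.6% of all genes tested. Without WT 1, 44 of the 77 (57.1%) were lower, against 53.7% of all genes, with a median of −0.011 against −0.0065, and 21 members had the opposite sign. At an unadjusted p under 0.05, 2 were then lower (Ndufc2 and Atp5e, background 3.21%) and 2 higher (Uqcrb and Atp5g2, background 2.3%), and 0 passed adjustment in limma (background 0.00847%). Without WT 2 the median was −0.074 and 67 were lower.

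**Figure D1:**
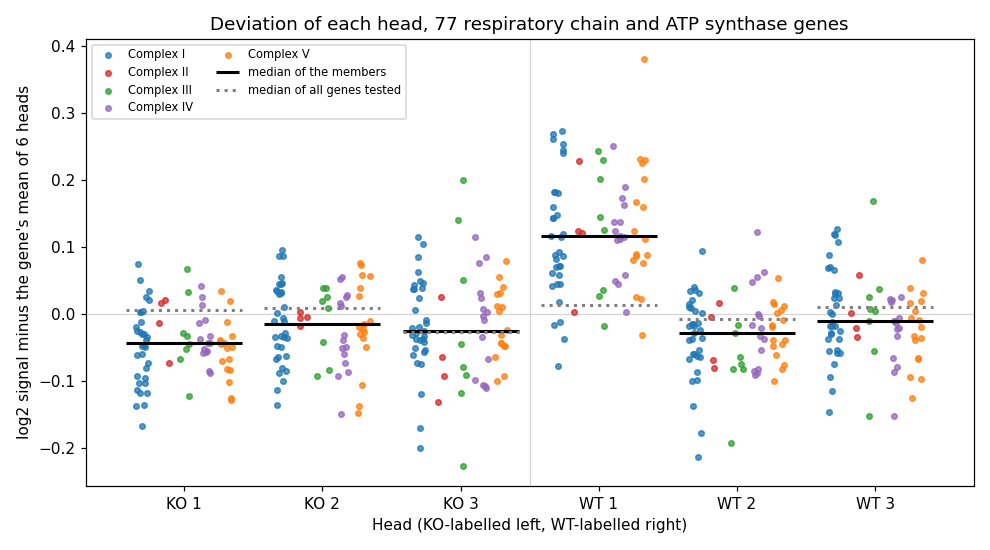
Deviation of each head from a gene's mean over the 6 heads (y axis, log2 signal), for the 77 tested subunit genes, coloured by complex. Solid bars are the members' medians and dotted bars those of all genes tested; the WT 1 median of 0.116 stands above the other 5, which lie between −0.044 and −0.011.

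WT 1 also had the lowest array median and the highest sum of neural progenitor markers. For every other marker list another head had the highest sum. The macrophage and neural progenitor sums were lower in every KO-labelled head than in every WT-labelled head. Its array median over all probe sets was 7.35, against 7.42 to 7.45 in KO-labelled heads and 7.44 in the other WT-labelled heads. Summed linear signals of 11 tested neural progenitor markers of 11 (Sox2, Pax6, Nes and others) were 27561 to 28640 in KO-labelled heads and 28671 to 30907 in WT-labelled heads, the highest being WT 1. Those of 10 neuronal markers of 10 were 8898 to 11803 and 10017 to 11990, with WT 1 at 11566. Those of 8 erythroid markers of 10 were 25460 to 27459 and 26576 to 28484. The other marker sums were 1279 to 1379 and 1401 to 1460 for 6 macrophage markers of 10, 6717 to 6943 and 6690 to 7104 for 10 endothelial markers of 10, 8315 to 9951 and 8543 to 9233 for 11 mesenchyme and neural crest markers of 12, and 3833 to 4090 and 3981 to 4644 for 8 surface ectoderm markers of 8, KO-labelled heads before WT-labelled heads in each case. The macrophage genes Ptprc, C1qa, Fcgr3 and Aif1 and the crest gene Foxd3 fell below the brightness filter. By gene, 10 of 10 neuronal, 8 of 8 erythroid, 9 of 11 neural progenitor and 5 of 6 macrophage markers had a lower mean in KO-labelled heads. So did 5 of 8 surface ectoderm, 5 of 10 endothelial and 4 of 11 mesenchyme and neural crest markers, where 55.4% of all genes did. With the arrays centred on their medians, the members' median was −0.081, against −0.036 over all genes tested. In that setting 71 members were lower (69.0% of all genes). The part of cell composition and of array level in the offset was not tested.

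**Figure D2:**
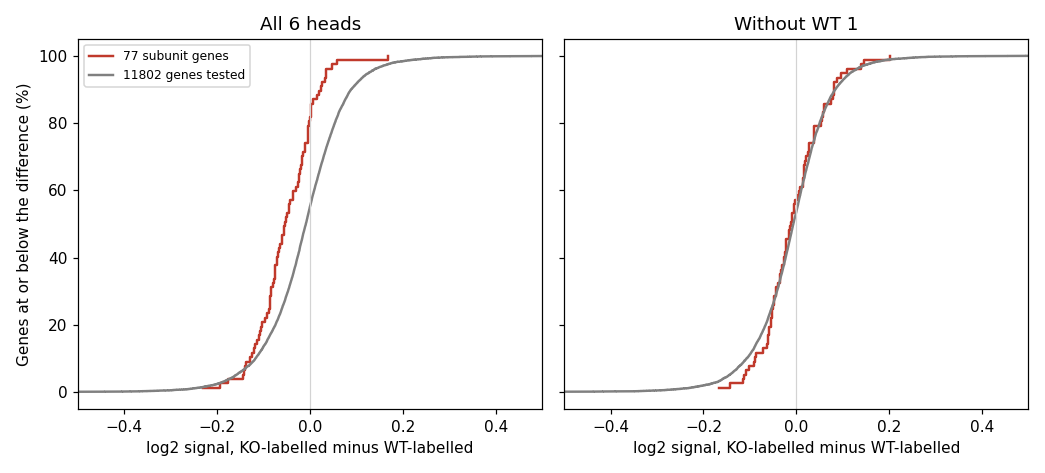
Cumulative share of genes (y axis, %) at or below a given difference, KO-labelled minus WT-labelled (x axis, log2 signal), for the 77 subunit genes and for all 11802 genes tested. With 6 heads the subunit curve lies to the left, with 81.8% below 0 against 55.4%; without WT 1 the shares are 57.1% and 53.7%.

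The precision was enough to bound these differences narrowly. The members' differences ran from −0.23 to 0.17, or 0.85 to 1.12 times the WT-labelled signal. The bounds of their 95% confidence intervals in limma ran from 0.768 to 1.23 times. An exact permutation test of 3 against 3 heads cannot give a two-sided p below 0.1, and the 10 tested members whose groups did not overlap had that value. Of these, 9 had every KO-labelled head below every WT-labelled head (7.81% of all genes had this) and 1 every KO-labelled head above (4.52% of all genes).

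Complex I, the NADH dehydrogenase, had 33 members, all tested. Of these, 25 were lower and 8 higher, with a median of −0.056 and 2 at an unadjusted p under 0.05, both lower (4.65% of all genes were). The 6 core subunits, which carry the flavin and most iron-sulfur clusters, had a median of −0.034, and the 27 accessory subunits one of −0.056. Without WT 1 these medians were 0.0011 and −0.022.

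Ndufc2, an accessory subunit of the membrane arm, had the smallest p of all members. Its signal (probe set 10555055) was 12.22, 12.22 and 12.21 in KO 1 to KO 3, against 12.58, 12.35 and 12.42 in WT 1 to WT 3. The KO-labelled heads were almost identical and all lay below the lowest WT-labelled head. The difference was −0.23 (SE 0.053, 95% interval −0.35 to −0.11), 0.85 times, and it did not pass adjustment (limma adjusted p = 0.28). Without WT 1 the Ndufc2 difference was −0.17 (limma adjusted p = 0.28).

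Ndufs8, a core subunit with iron-sulfur clusters on the path to ubiquinone, read 10.96, 10.93 and 11.04 in KO-labelled and 11.32, 11.04 and 11.09 in WT-labelled heads. The groups were separate by a small gap, and WT 1 was far above the others. The Ndufs8 difference was −0.18 (SE 0.070, limma adjusted p = 0.67) with all heads and −0.091 without WT 1. Ndufs7, the core subunit with the last cluster before ubiquinone, read 11.76, 11.83 and 11.94 in KO-labelled and 12.04, 11.90 and 11.91 in WT-labelled heads, and the groups overlapped. Its difference was −0.11 (limma adjusted p = 0.76), or −0.062 without WT 1.

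Ndufa8, an accessory subunit on the intermembrane side, read 9.93, 9.98 and 10.03 in the KO-labelled heads, against 10.23, 10.03 and 10.08 in the WT-labelled heads. The groups met at KO 3 and WT 2, and the difference was −0.13 (limma adjusted p = 0.73), or −0.072 without WT 1. Ndufb2, an accessory subunit of the membrane arm, was dimmer and very even within groups, with 7.52, 7.52 and 7.54 in KO-labelled and 7.64, 7.62 and 7.65 in WT-labelled heads. Its ranges were apart with no head standing out, at −0.11 with all heads and −0.11 without WT 1, and limma's adjusted p was 0.78. Ndufs6, an accessory subunit of the arm that takes up NADH, also had ranges that did not overlap (−0.077).

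The remaining complex I members lay between −0.14 (Ndufv3, −0.059 without WT 1) and 0.058 (Ndufs1, the largest core subunit). Complex I therefore held 4 members with every KO-labelled head below every WT-labelled head, where 7.81% of all genes had that pattern, and 0 with the reverse, against 4.52%.

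Complex II, succinate dehydrogenase, ties the tricarboxylic acid cycle to the chain and has only nuclear-encoded subunits. Sdha, the flavoprotein that oxidises succinate, read 10.96, 10.92 and 10.97 in KO-labelled and 10.94, 10.93 and 10.92 in WT-labelled heads, a range of less than 0.1 over all 6. Its difference was 0.016 (95% interval −0.072 to 0.10). Sdhb, the iron-sulfur subunit, read 10.54, 10.52 and 10.45 in KO-labelled heads, against 10.64, 10.43 and 10.52 in WT-labelled heads, and differed by −0.027 (95% interval −0.15 to 0.10), or by 0.026 without WT 1.

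The membrane anchors bind haem and ubiquinone. Sdhc read 10.80, 10.80 and 10.72 in KO-labelled heads and 10.93, 10.74 and 10.87 in WT-labelled heads, with overlapping ranges and a difference of −0.075 (limma adjusted p = 0.81), or −0.032 without WT 1. Sdhd read 10.00, 10.07 and 9.95 in KO-labelled heads and 10.30, 10.09 and 10.04 in WT-labelled heads. WT 1 was again the head apart for Sdhd, and the difference of −0.14 (limma adjusted p = 0.75) was −0.061 without it.

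**Figure D3:**
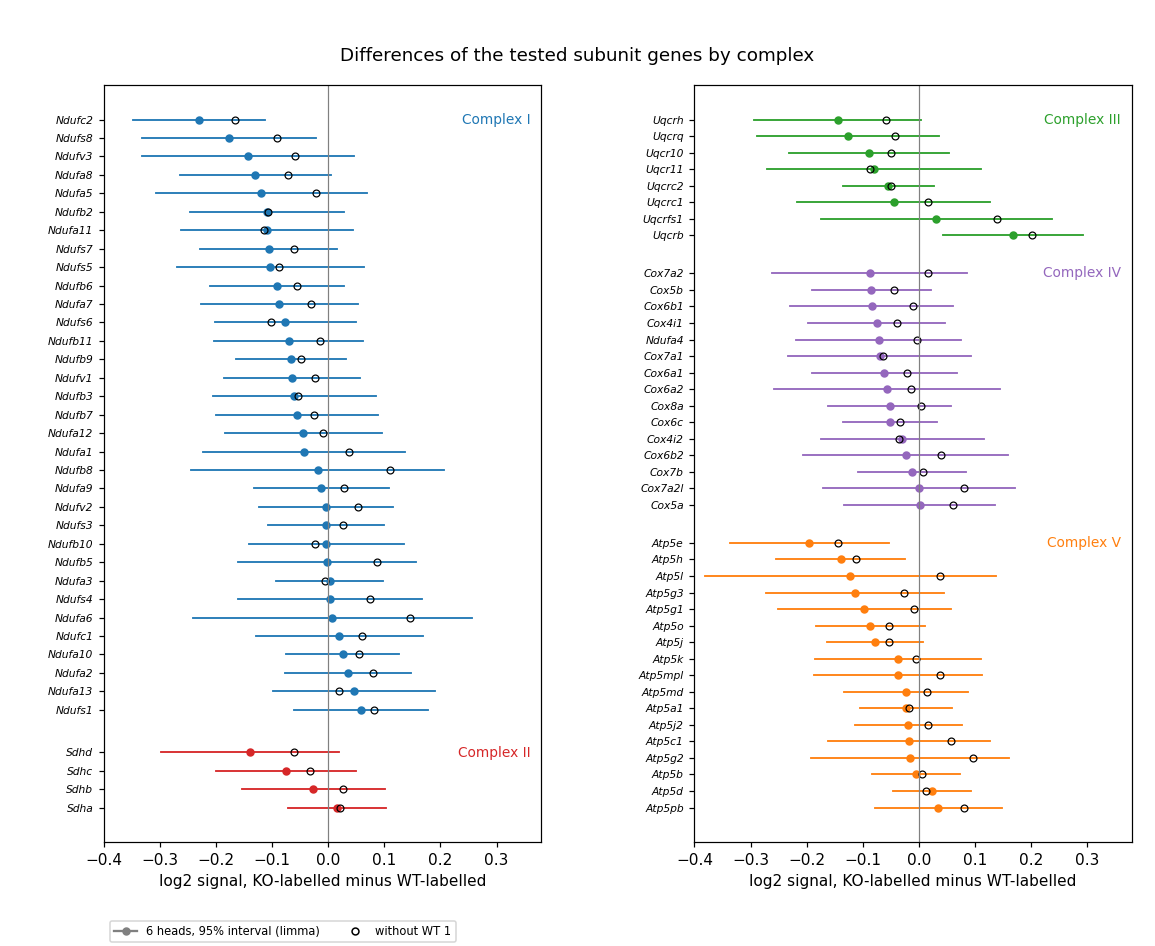
Difference in log2 signal, KO-labelled minus WT-labelled (x axis), of each of the 77 tested genes, grouped by complex. Filled points with lines are limma estimates from 6 heads with 95% intervals and open points are the estimates without WT 1; Ndufc2 (−0.23) and Uqcrb (0.17) mark the ends of the filled points, and most open points lie nearer 0 or beyond it.

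Complex III, the cytochrome bc1 complex, had 8 members, 6 lower and 2 higher, with a median of −0.068, or −0.046 without WT 1. It held the one member that was higher at an unadjusted p under 0.05. Uqcrb, an accessory subunit near the ubiquinone site, read 11.71, 11.70 and 11.88 in KO-labelled heads and 11.66, 11.60 and 11.53 in WT-labelled heads (probe set 10410259). All KO-labelled heads lay above all WT-labelled heads, KO 3 the most. The Uqcrb difference was 0.17 (SE 0.056, 1.12 times, limma adjusted p = 0.58), and without WT 1 it was 0.20 (limma adjusted p = 0.47). Without KO 3 it was 0.11.

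The other 2 probe sets of Uqcrb gave differences of the same sign, from 0.14 to 0.19 over the 3. Several of these subunits have near-identical processed copies in the mouse genome, and no source used here says which locus each probe set reads. Of the 16 members with more than 1 probe set, 15 had all of them on one side of 0.

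Of the remaining genes of complex III, 6 were lower and Uqcrfs1 was slightly higher. Uqcrh, the hinge protein between cytochrome c1 and cytochrome c, read 11.17, 11.11 and 11.12 in KO-labelled heads and 11.45, 11.19 and 11.20 in WT-labelled heads. The ranges were separate by little, and the difference was −0.14 (limma adjusted p = 0.71), or −0.059 without WT 1. Uqcrq, an accessory subunit, read 9.56, 9.59 and 9.55 in KO-labelled and 9.86, 9.56 and 9.65 in WT-labelled heads (−0.13, limma adjusted p = 0.78), or −0.043 without WT 1.

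Uqcrc2, a core protein of the matrix part, read 11.58, 11.63 and 11.58 in KO-labelled and 11.66, 11.66 and 11.63 in WT-labelled heads, a difference of −0.054. Uqcr10, a small accessory subunit, read 9.25, 9.34 and 9.19 in KO-labelled and 9.43, 9.28 and 9.34 in WT-labelled heads, overlapping, with a difference of −0.089 (limma adjusted p = 0.81), or −0.049 without WT 1. The Rieske iron-sulfur protein gene Uqcrfs1 differed by 0.031, Uqcrc1 by −0.045 and Uqcr11 by −0.081, and none of these passed. Without WT 1, Uqcrfs1 was at 0.14 and Uqcrc1 at 0.016.

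**Figure D4:**
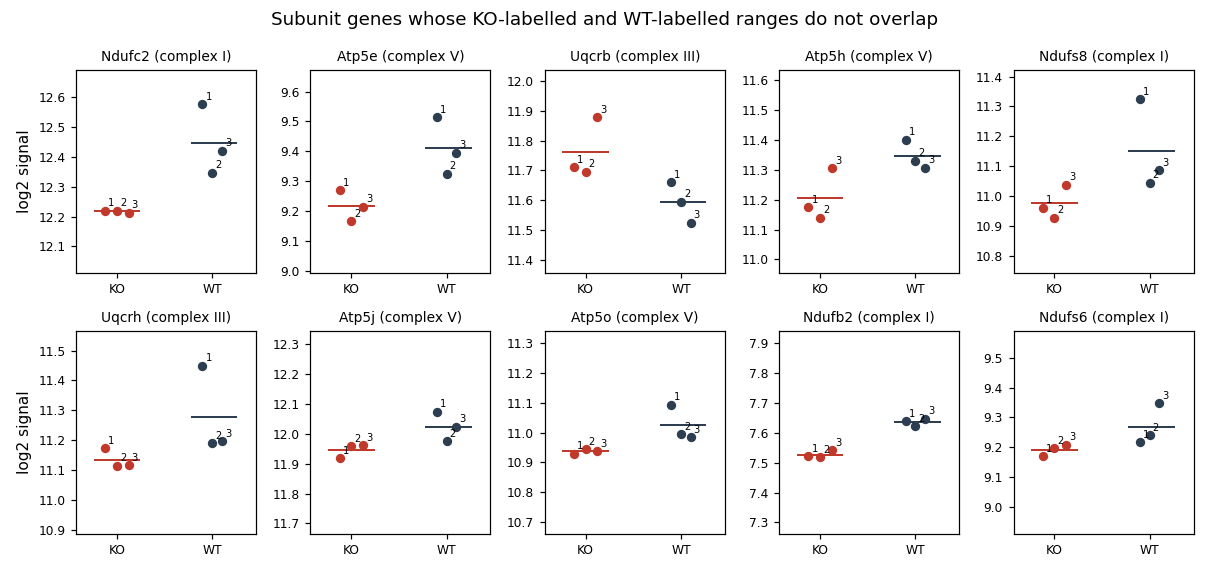
Signals (y axis, log2) of the 10 tested members whose groups do not overlap, with KO-labelled heads left and WT-labelled heads right, numbered by replicate, and lines at the group means. All panels span the same number of log2 units around the gene's mean; Uqcrb is the only one with KO-labelled heads on top, and WT 1 is the top head in 7 panels.

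Complex IV, cytochrome c oxidase, had 19 members, of which 15 were tested. None of these 15 stood at an unadjusted p under 0.05 in either direction. Of the 15, 14 were lower, within a narrow span from −0.087 to 0.0016, with a median of −0.056. Without WT 1, 9 were lower and the median was −0.011. The 10 genes of the commonly expressed isoforms had a median of −0.066, or −0.0072 without WT 1, and WT 1 was the highest head for 9 of them. Also among the 15 was Cox7a2l, counted as a related protein, at −4.7e-05 with all heads and 0.081 without WT 1.

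Cox5b, a zinc-binding subunit on the matrix side, read 11.30, 11.33 and 11.39 in KO-labelled and 11.51, 11.37 and 11.40 in WT-labelled heads (−0.085, limma adjusted p = 0.77). Cox4i1, the common isoform of the subunit that takes part in regulation of the enzyme by ATP, read 10.28, 10.34 and 10.20 in KO-labelled and 10.42, 10.29 and 10.33 in WT-labelled heads (−0.075, limma adjusted p = 0.81). Cox6c, a membrane subunit, read 12.59, 12.52 and 12.63 in KO-labelled and 12.66, 12.60 and 12.62 in WT-labelled heads (−0.051). In all 3 the groups overlapped and WT 1 was on top, and without it Cox5b was at −0.044 and Cox4i1 at −0.038.

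Cox6b1, a subunit facing the intermembrane space, read 11.61, 11.67 and 11.55 in KO-labelled and 11.84, 11.56 and 11.68 in WT-labelled heads, at −0.084 with all heads and −0.011 without WT 1. Cox7a2, the widely expressed isoform of its subunit, read 10.41, 10.43 and 10.43 in KO-labelled and 10.72, 10.44 and 10.38 in WT-labelled heads. Its difference of −0.087 became 0.016 without WT 1, so its sign rested on that head.

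Isoforms known from other tissues were tested for 4 of 7 genes. The muscle isoforms Cox6a2 and Cox7a1 differed by −0.056 and −0.070, the lung and hypoxia isoform Cox4i2 by −0.029 and the testis isoform Cox6b2 by −0.023. Without WT 1, Cox6a2 was at −0.013 and Cox6b2 at 0.039. Cox8b (muscle), Cox7b2 and Cox8c (testis) and Ndufa4l2, which is induced by hypoxia in other tissues, fell below the brightness filter of 7.06. In the fit without that filter Cox8b, Cox7b2 and Cox8c differed by −0.00025, 0.036 and 0.016. Ndufa4l2 read 6.40, 6.41 and 6.41 in KO-labelled heads and 6.66, 6.57 and 6.53 in WT-labelled heads. Its difference was −0.18 with separate ranges in that same fit. The unadjusted p in limma was 0.032 there, and 0 members passed adjustment in that fit.

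Complex V, ATP synthase, had 17 members, all tested, 15 lower and 2 higher, with a median of −0.037 and 2 lower at an unadjusted p under 0.05 (4.65% of all genes were). Without WT 1, 8 were lower and the median was 0.0066. In the catalytic F1 part the 5 genes had a median of −0.018, in the c-ring 3 genes had −0.097, in the peripheral stalk 4 genes had −0.082, and in the rest of the membrane part 5 genes had −0.037. Without WT 1 these were 0.0066, −0.0089, −0.053 and 0.017.

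Atp5e, the epsilon subunit of the rotating central stalk, read 9.27, 9.16 and 9.21 in KO-labelled heads and 9.51, 9.32 and 9.39 in WT-labelled heads. The ranges were separate, and the Atp5e difference was −0.20 (SE 0.063, 0.87 times, limma adjusted p = 0.56), or −0.14 without WT 1. The remaining F1 genes stayed close to 0, Atp5a1 at −0.022, Atp5b at −0.0051, Atp5c1 at −0.018 and Atp5d at 0.023. Without WT 1, Atp5b was at 0.0066, Atp5c1 at 0.058 and Atp5d at 0.014. Atp5a1 and Atp5b encode the alpha and beta subunits that form the catalytic head, and their 95% intervals were −0.10 to 0.060 and −0.084 to 0.073.

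The peripheral stalk holds the catalytic head still against rotation, and 3 of its 4 genes had KO-labelled heads below all WT-labelled heads, where 7.81% of all genes did. Atp5h (subunit d) read 11.17, 11.14 and 11.30 in KO-labelled and 11.40, 11.33 and 11.31 in WT-labelled heads, with KO 3 and WT 3 almost touching (−0.14, SE 0.051, limma adjusted p = 0.65). Atp5j (coupling factor 6) read 11.92, 11.96 and 11.96 in KO-labelled and 12.07, 11.98 and 12.02 in WT-labelled heads (−0.078). Atp5o, the oligomycin sensitivity protein at the top of the stalk, read 10.93, 10.94 and 10.94 in KO-labelled and 11.09, 10.99 and 10.98 in WT-labelled heads (−0.087).

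The fourth gene of the stalk, Atp5pb (subunit b), differed by 0.035, or by 0.081 without WT 1. Without WT 1, Atp5h, Atp5j and Atp5o were at −0.11, −0.053 and −0.052. Atp5g1, Atp5g2 and Atp5g3 encode the same mature c subunit, of which the ring is built. Atp5g3 read 11.63, 11.71 and 11.76 in KO-labelled and 11.99, 11.68 and 11.77 in WT-labelled heads, overlapping apart from WT 1 (−0.11, or −0.027 without WT 1). Atp5g1 differed by −0.097 and Atp5g2 by −0.015, and without WT 1 Atp5g1 was at −0.0089 and Atp5g2 at 0.096. Among the membrane subunits Atp5l had the widest spread of all members, since WT 1 stood 0.48 above the mean of WT 2 and WT 3.

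By chromosome, 6 tested members lie on chromosome 2, which also carries Tasp1 (Atp5e, Ndufa8, Atp5g3, Ndufs3, Atp5c1 and Cox4i2). All 6 were lower, with a median of −0.072, against −0.054 for the 71 members elsewhere and −0.014 for all 939 genes tested on that chromosome. Without WT 1 the 6 had a median of −0.031 and the 71 one of −0.0093. The 3 X-linked members Ndufa1, Ndufb11 and Cox7b had a median of −0.043, or 0.0073 without WT 1, where 1 of the 3 was lower. Without WT 2, the head with the female pattern, their median was −0.083 and all 3 were lower.

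Tested members with an ETS core in the promoter had a median of −0.082 (16 of 16 lower), against −0.044 (37 of 48 lower) for members whose promoter lacked one. Without WT 1 those medians were −0.024 and 0.0015. Of the members with an ETS core, Ndufs3, Sdhb, Cox8a, Atp5l and Atp5md were then higher and the rest lower. For the NRF1 core the medians with and without it were −0.053 and −0.058, and for the YY1 core −0.012 and −0.065. Without WT 1 they were 0.0061 and −0.0091 for NRF1, and 0.028 and −0.011 for YY1. These are descriptions of a few genes and were not tested.

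The other genes of the pathway, from lists by role, had 0 genes past adjustment in limma. Of the subunits encoded in mitochondrial DNA the annotation gave 2 with a probe set of their own. COX2, a catalytic subunit of complex IV, differed by 0.046 and ND3, a membrane subunit of complex I, by −0.054, and without WT 1 COX2 was at 0.030 and ND3 at −0.0086. Among subunits and carriers outside the naming rule, 10 were tested, 5 of them lower, with a median of −0.00078. Without WT 1, 3 of the 10 were lower and the median was 0.010. With all heads, Etfb, which feeds electrons from fatty acid oxidation, was at −0.15 and its partner Etfa at 0.12. The electron carrier cytochrome c gene Cycs was at −0.086.

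Assembly factors of complex I were mostly higher. Among the 13 tested, 3 were lower and 10 higher. Their median was 0.051, or 0.057 without WT 1, and WT 1 was the highest head for 0 of them. Nubpl, an iron-sulfur cluster factor of complex I, was at 0.30 (limma adjusted p = 0.67), Ndufaf7, a methyltransferase that acts on complex I, at 0.14 and Ndufaf5 at 0.17. Without WT 1, Nubpl was at 0.17 and Ndufaf5 at 0.059. The Ndufaf5 gene lies on chromosome 2, which also carries Tasp1. At an unadjusted p under 0.05, 1 of the 13 was higher, Nubpl (background 2.47%), and 0 were without WT 1. The difference between assembly factors and subunits was not tested.

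With all heads, the remaining assembly lists lay closer to the background. For complexes II and III 9 were tested (median 0.00086, or 0.019 without WT 1). Uqcc3 was at −0.16, Uqcc1, on chromosome 2, at 0.15 and Uqcc2 at −0.083 (−0.040 without WT 1). For complex IV 16 were tested (12 lower, median −0.038), with Cox20, a chaperone of COX2, at −0.21, Coa7 at −0.14 and Coa6 at −0.12, and without WT 1 Cox20 was at −0.13 and Coa6 at −0.042. For complex V 4 were tested (median 0.018, or 0.056 without WT 1). Atpaf1, a chaperone of the F1 part, was at 0.11, Tmem242 at −0.090 and Tmem70 at 0.023. Without WT 1 Tmem242 was at −0.029 and Tmem70 at 0.013. At an unadjusted p under 0.05 these lists held Uqcc3 and Cox20, both lower (background 4.65%), and neither stayed under it without WT 1.

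The regulators of mitochondrial gene expression (17 tested, 9 lower and 8 higher) had a median of −0.014, or −0.027 without WT 1. Gabpa, the DNA-binding subunit of GABP, was at 0.12 (limma adjusted p = 0.70), Esrra, a nuclear receptor that acts on these genes, at −0.090 and Yy1 at 0.051. Genes of pyruvate entry and the tricarboxylic acid cycle (16 tested, 8 lower and 8 higher, median 0.00087) held 3 higher genes at an unadjusted p under 0.05 (background 2.47%). These were Dlat (0.17) and Dld (0.12), subunits of pyruvate dehydrogenase, and Suclg2 (0.14) of succinyl-CoA ligase, with adjusted p in limma of 0.62, 0.67 and 0.67. Without WT 1, 4 of the 16 were lower and 12 higher, the median was 0.052, and Dlat and Suclg2 were still at that level.

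Import and cristae genes (26 tested, 14 lower, median −0.0028) held the inner membrane scaffold Phb2 at −0.11, the outer membrane channel Vdac1 at −0.092 and the import receptor Tomm20 at 0.13. Without WT 1, 8 of the 26 were lower and the median was 0.024. Coenzyme Q synthesis had 11 tested genes, 6 lower, with a median of −0.014, or −0.0039 without WT 1. It held Coq7, the hydroxylase of a late step, at −0.25 (limma adjusted p = 0.47), Pdss2 at 0.17 and Coq10b at −0.088. Without WT 1 Pdss2 was at 0.074 and Coq10b at 0.0073. Phb2, Vdac1 and Coq7 were the lower genes of these lists at an unadjusted p under 0.05 (background 4.65%), and Vdac1 was not without WT 1. Etfb was lower at that level with and without WT 1.

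The rule also met 6 probe sets annotated to several genes, which were not among the members. They were 3 for Cox7c with Gm12338, 2 for Ndufb4 with Ndufb4b and 1 for Ndufs5 with its pseudogene. Their differences ran from −0.016 to 0.0064.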

How the data were processed

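The deposited table holds log2 signals for 35556 probe sets in 6 arrays, as the authors made them. Affymetrix Expression Console and MAS5 appear in the submitters' processing notes, and no source used here states the background, scaling or summary steps. The log2 values were used as deposited, without a pseudocount or rescaling. Genes were named from the platform annotation (21789 probe sets with 1 symbol, 1621 with several, 12146 unnamed here). The 40% of single-symbol probe sets with the lowest mean (below 7.06) were left out, and each gene was read from its brightest probe set, which left 11802 genes. The comparison of labelled genotypes used limma 3.58.1 (R 4.3.3), lmFit and eBayes with a trend, two-sided, Benjamini-Hochberg over all genes, threshold 0.05. The procedure was tested on simulated data.

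Named in full are the 5 members with the smallest unadjusted p of complexes I, III, IV and V, and all 4 of complex II. Members whose groups do not overlap are named by difference, as are the 3 genes with the smallest p of each other list. Genes named beside these, including those on chromosome 2 and the isoforms, were chosen after their values were seen. The members and lists were chosen with earlier results of these data known. Nothing says beyond the labels how separate the embryos were (litters, for example), so the p-values measure the spread between these heads. Coordinates are those of GRCm38.p6. The number of arrays limits the precision. Alternatives covered scaling, pseudocounts, filters, probe sets, variance models, threshold, array weights, sex chromosomes, the member list, a replicate block and each head left out.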

Additional observations from a re-analysis of the deposited data

How the results depend on the processing

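The count of members past adjustment was 0 under all 20 alternatives tried, with a smallest adjusted p of 0.15 among the 24 members named in full. The size of the set's offset rested on WT 1: over the heads left out in turn its median ran from −0.074 to −0.011, nearest 0 without WT 1, and that of complex V from −0.078 to 0.0066. With array weights, which gave WT 1 the lowest weight of 0.44, the median was −0.024, 51 of 77 being lower (50.6% of all genes). With median centring the members' median was −0.081, against −0.036 over all genes, and 71 were lower (69.0% of all genes). With quantile normalization it was −0.058, against −0.021, and 60 were lower (61.1%). Lower members at an unadjusted p under 0.05 numbered 2 to 12 with a head left out (2 without WT 1, 2 without KO 2, 12 without WT 2). Higher ones numbered 0 to 2 with a head left out. With median centring and in the ordinary linear model 0 were higher. All genes past adjustment numbered 0 to 6 with a head left out, 1 with the 60% filter, 5 with array weights, 2 with no filter, 1 with quantile normalization and 3 at an adjusted p of 0.10. Sdha was at −0.011 with median centring, Sdhb at 0.014 with array weights and from −0.074 to 0.026 with a head left out, and Cox7a2 from −0.15 to 0.016; the cause was not tested. With the replicate number as a block 5 members were lower and 1 higher at an unadjusted p under 0.05 and 0 passed adjustment; same-numbered heads deviated against each other (correlations across genes −0.17, −0.11 and −0.21), so they share only a number.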
